A study of Homo sapiens with 12 samples.

Results

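The members of the circadian clock examined here were BHLHE40, BHLHE41, PER1, PER2, PER3, CRY1, CRY2, NR1D1, NR1D2 and CLOCK, 10 named genes matched by symbol to the 17197 symbols of the deposited tables. All 10 were found, and all 10 were among the 13171 genes with enough counts to be tested. RNA sequencing covered 12 libraries of AC16, an established human line made by fusing adult ventricular heart cells with transformed fibroblasts, in 4 groups of 3. The group siNC (libraries 1 to 3) received a negative control siRNA and no hydrogen peroxide (H2O2), siEP300 (libraries 4 to 6) an siRNA against EP300, siNC.H2O2 (libraries 7 to 9) the control siRNA and H2O2, and siEP300.H2O2 (libraries 10 to 12) the EP300 siRNA and H2O2. All cells were transfected with jetPRIME in serum-free medium. Where H2O2 was used it followed 12 h later, lasted 1 h and is labelled as 200 mM (the unit may be in error), and was followed by serum-containing medium. The labels do not say whether cells without H2O2 got fresh medium at the same time. RNA was taken after 48 h in every group, so each gene was seen at a single time and its rhythm was not measured.

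The mammalian clock is a feedback loop in transcription. CLOCK (or its relative NPAS2) pairs with BMAL1 and binds E-boxes to switch on the PER and CRY genes, whose proteins then return to the nucleus and repress CLOCK-BMAL1. The same pair drives NR1D1 and NR1D2, which encode the REV-ERB receptors that repress BMAL1, and BHLHE40 and BHLHE41, which encode the DEC proteins that compete for E-boxes. EP300 is a lysine acetyltransferase and transcriptional coactivator known to join CLOCK-BMAL1 at its targets, and clocks of this kind run in heart cells as in most tissues.

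Estimated counts summed to 16081437 to 19033679 per library, and a member had between 91 counts (BHLHE41) and 1838 counts (NR1D2) in a library. EP300 fell with its siRNA by 1.19 without and 1.46 with H2O2 on the log2 scale (edgeR adjusted p = 3.6e-06 and 5.9e-07), and its libraries did not overlap between siRNAs. A treatment field of the same 6 libraries gives MLF1 as the target, and MLF1 fell by 0.22 and 0.29. Whether a group's libraries are separate cultures is not labelled, and p-values therefore reflect the spread between these samples only, which may be technical. Of 14 cardiomyocyte markers in the tables, 10 were under 1 FPKM in every library, with MYH6 and MYH7 at 0.01 or less, while the natriuretic peptide gene NPPB had group means of 90.8 to 129 FPKM and made up most of a cardiomyocyte sum of 92.2 to 156. In the same unit, 9 fibroblast markers summed to 2975 to 3689 (FPKM are fragments scaled to gene length and library size). Of these, COL1A1, COL3A1, DCN, LUM and PDGFRB had their highest group mean in siNC and their lowest in siEP300.H2O2, unlike COL1A2, FN1, THY1 and VIM. The summed level of 6 endothelial markers was 23.4 to 36.1 FPKM over the control siRNA libraries and 6.69 to 8.25 over the EP300 siRNA libraries. Nearly all of it was EGFL7 (group means 28.6 in siNC and 6.40 in siEP300), with PECAM1, CDH5 and VWF at 0.22 or less. Smooth muscle markers summed to 146 to 154 FPKM in siNC, 183 to 184 in siEP300, 186 to 208 in siNC.H2O2 and 220 to 268 in siEP300.H2O2. They did not move together. TAGLN, ACTA2 and SMTN had higher means with EP300 siRNA in both H2O2 states. CNN1 went the other way, from 36.9 to 12.7 without H2O2 and from 32.9 to 13.1 with it, and MYH11 was at 0.11 or less. Sums also differed between groups for epithelial markers (276 to 512 over all libraries) and leukocyte markers (26.4 to 56.6). Nearly all of the epithelial sum was KRT18 and KRT8, with EPCAM at 1.82 or less and CDH1 at 0.27 or less. Most of the leukocyte sum was CD68 (group means 23.4 in siNC to 50.5 in siEP300.H2O2), with PTPRC at 0.16 or less. CD14 went the other way with EP300 siRNA, from 5.87 to 3.57 without H2O2 and from 6.23 to 2.89 with it. The part of these markers in the results was not tested. In bulk RNA, fewer cells of a type and less RNA per cell cannot be told apart. Within groups, 51.7% of the variance lay on a single axis that followed gene length (rank correlation 0.77 over 10747 genes) and GC content (-0.46). siNC library 1 (score 14.0) and siNC.H2O2 library 7 (-11.4) lay at its ends.

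The DNA next to the start sites is shown first, because E-boxes (CACGTG) are the sites through which the loop closes and the members differ in which letters they carry. The windows are RefSeq promoters of GRCh38.p14, from 250 bases before to 50 after a start, and the 10 members had 14 of them. Motifs were searched on both strands. Each line gives 30 bases, 5′ to 3′ on the gene's strand, with the motif in capitals. An exact E-box is shown for BHLHE40 (chr3:4979187-4979216, plus strand), BHLHE41 (chr12:26125068-26125097, minus), PER1 (chr17:8152560-8152589, minus) and NR1D2 (chr3:23945954-23945983, plus).
BHLHE40: tccaaCACGTGagactcatgtgatgaagcc
BHLHE41: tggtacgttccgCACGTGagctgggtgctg
PER1: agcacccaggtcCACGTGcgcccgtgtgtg
NR1D2: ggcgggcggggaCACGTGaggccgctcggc
The variant CACGTT, which reads AACGTG on the other strand, is shown for NR1D1 (chr17:40100740-40100769, minus), CRY1 (chr12:107093621-107093650, minus) and PER2 (chr2:238288790-238288819, minus).
NR1D1: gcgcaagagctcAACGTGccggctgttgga
CRY1: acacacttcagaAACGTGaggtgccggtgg
PER2: ggcgcgcgcggtCACGTTttccactatgtg
PER3 had neither form and carried a D-box (TTATGTAA), the site of the PAR bZIP factors such as DBP and TEF (chr1:7784103-7784132, plus).
PER3: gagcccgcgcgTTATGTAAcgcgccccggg

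The exact E-box was present in 4 of the members' 14 windows, against 7.26% of 35116 RefSeq windows, and CACGTT in 5 of 14 (PER2, CRY1, CRY2, NR1D1 and CLOCK), against 5.34%. Either form was in 9 of 14, against 12.2% of all windows. The site of BHLHE41 lay 48 bases upstream of the RefSeq start, that of CRY1 89, that of NR1D1 168 and that of PER1 173. By the GENCODE 29 annotation the E-boxes of BHLHE40 and BHLHE41 fell in a UTR of a transcript, those of PER1 and NR1D2 inside the gene in introns, and the NR1D1 site and the PER3 D-box upstream of the gene. TTATGTAA was in PER3 and NR1D2 (0.886% of windows), TTATGCAA in PER1 (0.846%), and AGGTCA, the core bound by REV-ERB and ROR receptors, in PER1 and CRY2 (13.8%). The cyclic AMP response element TGACGTCA (1.85% of windows) was in 0 of the 10 members' windows. A match describes letters only, and these data hold no binding measurements.

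Levels per gene length were compared in the authors' FPKM. CRY1, the cryptochrome repressor, had the highest level of the 10 in each group, at 30.5 ± 1.09 FPKM (SD, n = 3) in siNC, which placed it at percentile 75.2 of the genes tested. In siNC it was followed by NR1D2 (18.9 ± 1.93), PER3 (12.3 ± 1.84), BHLHE40 (11.5 ± 1.28), CRY2 (8.79 ± 0.651), PER1 (8.05 ± 0.331), NR1D1 (8.05 ± 0.170), CLOCK (5.45 ± 0.727), PER2 (1.77 ± 0.250) and BHLHE41 (1.68 ± 0.269). The libraries of PER3 and BHLHE40 overlapped, as did those of CRY2, PER1 and NR1D1 and those of PER2 and BHLHE41, so the order within these sets was not resolved. Over the 4 groups PER2 lay at percentiles 17.3 to 20.6 of the genes tested and BHLHE41 at 16.9 to 27.97.

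**Figure D1:**
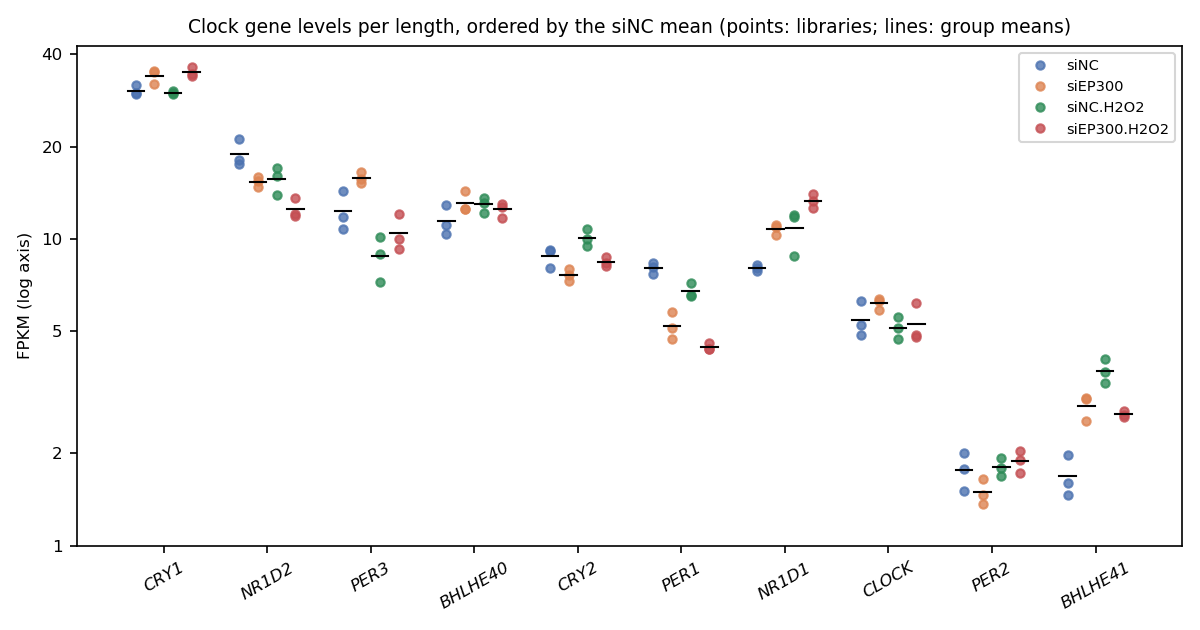
FPKM of the 10 clock genes on a log axis, with 1 point per library and a line at each group mean, ordered by the siNC mean. CRY1 is at the top in all 4 groups, at 29.6 FPKM or more in each library, and PER2 and BHLHE41 are at the bottom, with BHLHE41 moving from 1.68 in siNC to 3.71 in siNC.H2O2.

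In FPKM, related genes did not keep their proportions. The FPKM of NR1D2 was 2.36 ± 0.286 times that of NR1D1 in siNC (SD over 3 libraries), 1.42 ± 0.0904 times in siEP300, 1.49 ± 0.402 times in siNC.H2O2 and 0.944 ± 0.120 times in siEP300.H2O2. For PER3 over PER1 the ratio without H2O2 was 1.53 ± 0.206 in siNC and 3.05 ± 0.287 in siEP300, and with H2O2 1.30 ± 0.229 in siNC.H2O2 and 2.35 ± 0.266 in siEP300.H2O2. BHLHE40 stood at 6.86 ± 0.651 times BHLHE41 in siNC and at 3.52 ± 0.520 times in siNC.H2O2, with 4.60 and 4.66 in the EP300 siRNA groups. For CRY1 over CRY2 the ratio was 3.48 ± 0.254 in siNC and 2.97 ± 0.188 in siNC.H2O2, below its 3 values in each EP300 siRNA group, which started at 4.14. These ratios are descriptions and carry no test of their own. They are not adjusted for GC content, which differs within some pairs. CRY1 and CRY2 are at GC percentiles 6.35 and 77.7, and PER3 and PER1 at 34.7 and 91.1. With the GC offset used below, chosen after seeing the data, siEP300 against siNC gave log2 changes of 0.03 for CRY1 and 0.04 for CRY2. Neither was called. For NR1D1 and NR1D2 the values were 0.69 and -0.37, both called. The part of GC content in the ratios was not tested.

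The effect of EP300 siRNA was first taken in cells that had no H2O2. BHLHE41, PER3, NR1D1, BHLHE40 and CRY1 rose, by 0.83, 0.41, 0.48, 0.26 and 0.21 on the log2 scale, while PER1 fell by 0.56 and NR1D2 by 0.23. Thus 7 of 10 members were called (edgeR, Benjamini-Hochberg adjusted p under 0.05), 5 higher and 2 lower, against 61.5% of all genes tested, 30.1% higher and 31.4% lower. The share of members called was therefore close to that of all genes. The members' median log2 fold change was 0.22, against -0.0042 over all genes, and their median absolute change was 0.24, against 0.32. Libraries of the groups did not overlap for 7 members and for 68.1% of all genes.

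With H2O2 present, EP300 siRNA again gave lower PER1 (a fall of 0.58) and NR1D2 (0.30) and higher NR1D1 (0.31) and CRY1 (0.22), and it gave lower CRY2 (a fall of 0.25) and BHLHE41 (0.46). In all 6 members were called, 2 higher and 4 lower, against 59.0% of all genes (28.4% higher and 30.6% lower). The members' median was 0.0032, against -0.019 over all genes. PER1, NR1D1, NR1D2 and CRY1 were thus called in the same direction in both states, while BHLHE41 was called in opposite directions. The share of all genes called alike in both states is not given here, so this is a description only.

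H2O2 with control siRNA raised BHLHE41 (1.22), NR1D1 (0.51), CRY2 (0.28) and BHLHE40 (0.26) and lowered PER3 (a fall of 0.41). These 5 of 10 members, 4 higher and 1 lower, compare with 35.3% of all genes, 17.8% higher and 17.4% lower. The median was 0.08 for the members and -0.0081 for all genes. H2O2 with EP300 siRNA raised PER2 (0.38) and NR1D1 (0.34) and lowered PER3 (by 0.56) and NR1D2 (by 0.26), which made 4 of 10 called, against 31.1% of all genes, 15.9% higher and 15.1% lower. Comparisons that share a group share its libraries, so that siNC enters both the first EP300 siRNA comparison and the first H2O2 comparison.

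**Figure D2:**
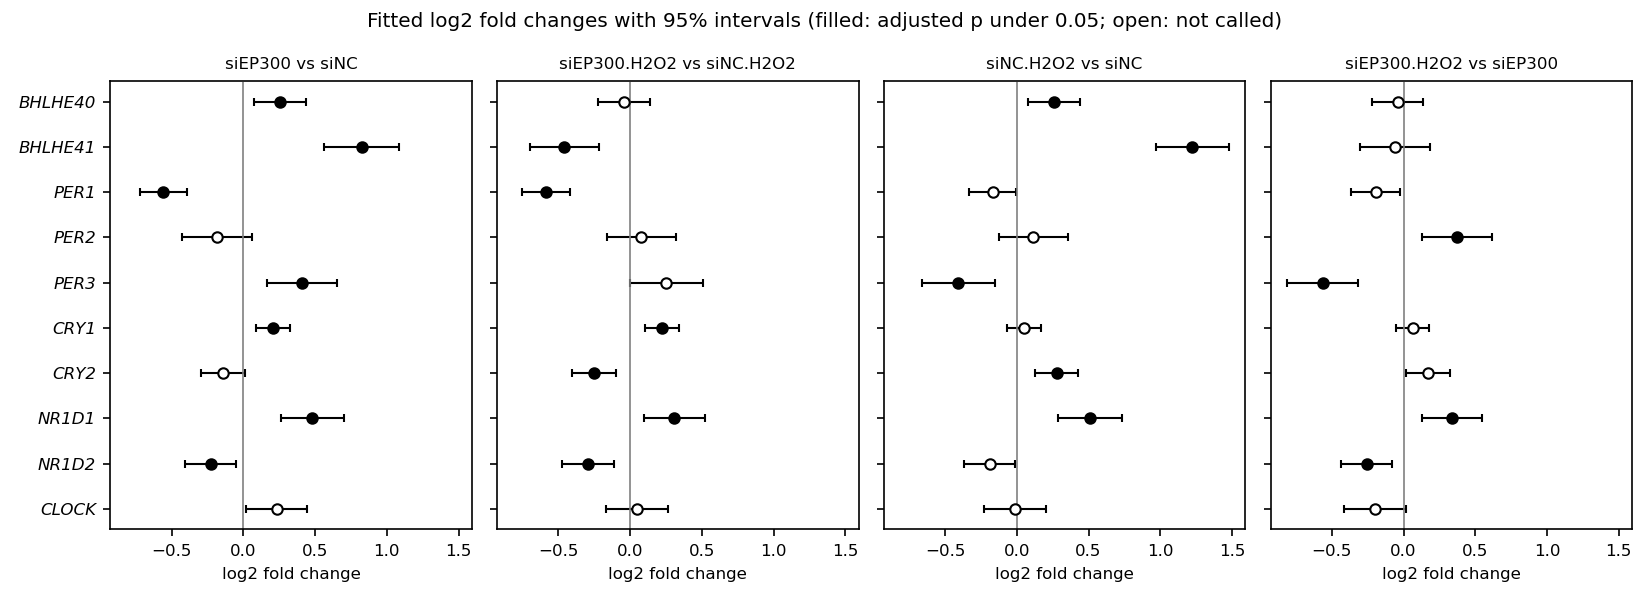
Fitted log2 fold change (x axis) of each clock gene in the 4 comparisons between groups, with bars for the 95% interval and filled points for calls. BHLHE41 is far to the right for siEP300 (0.83) and for siNC.H2O2 (1.22) against siNC and to the left for siEP300.H2O2 against siNC.H2O2 (-0.46), and PER1 is to the left of 0 in both EP300 siRNA panels.

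The difference of the EP300 siRNA effect between the H2O2 states, the interaction, was called for 1 of 10 members, BHLHE41, which was lower, against 3.33% of all genes (1.12% higher and 2.21% lower). For the other 9 the fitted interactions ran from -0.30 (BHLHE40) to 0.26 (PER2), and 95% intervals ran from -0.26 to 0.21 for PER1, from -0.15 to 0.18 for CRY1 and from -0.51 to 0.20 for PER3. In a fit chosen after seeing the data, siNC library 1 and siNC.H2O2 library 7 were both left out. The count was then 3, with BHLHE40 at -0.43 and PER3 at -0.39 (edgeR adjusted p = 0.017 and 0.037). Calls over all genes rose as well (counts in the last section). The 3.33% of the main fit is therefore not the share to set beside this count of 3. The libraries left score -9.09 and -4.89 (siNC) and 0.90 and 10.5 (siNC.H2O2) on the within-group axis. The rank correlation of the interaction with GC content was 0.27 in this fit and 0.12 in the main fit. The part of these differences in the added calls was not tested.

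**Figure D3:**
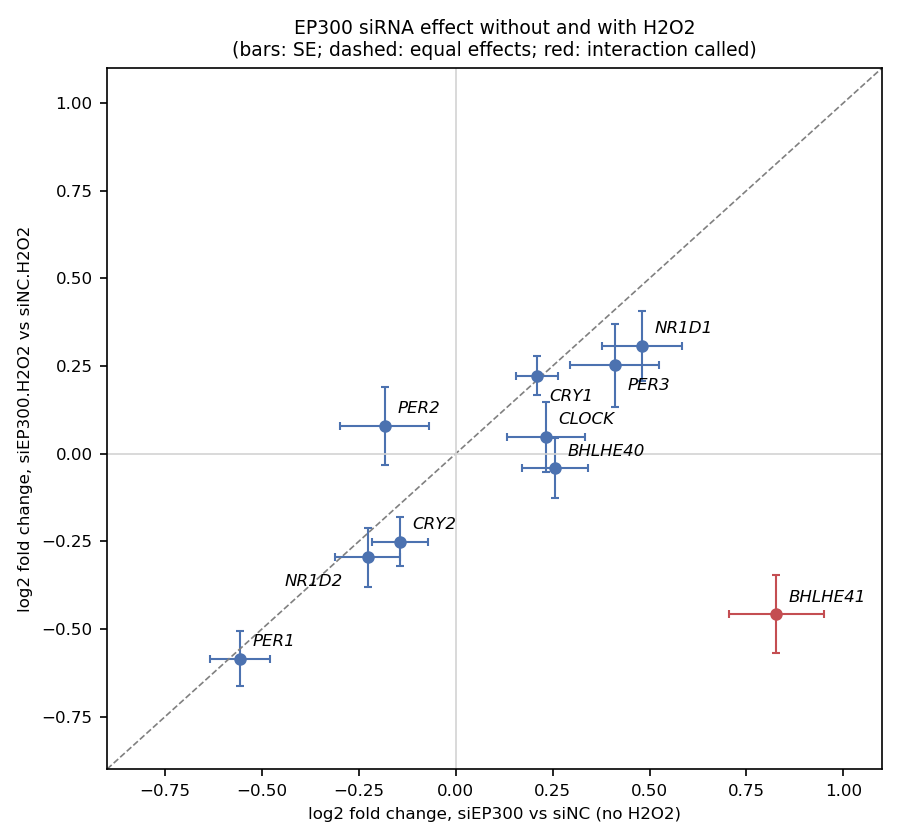
The log2 fold change of each clock gene with EP300 siRNA without H2O2 (x axis) against that with H2O2 (y axis), with SE bars and a dashed line of equal effects. BHLHE41 (red) lies at 0.83 and -0.46, far below the line, while PER1 lies on it at -0.56 and -0.58.

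Among the E-box competitors, BHLHE41 (DEC2, chromosome 12, positions 26120026 to 26125127, minus strand, GRCh38, GENCODE 29, as for the genes below) varied most between groups. Its level in CPM (counts scaled to a common library total after TMM normalisation) was 6.49, 5.31 and 4.82 in siNC and 10.4, 10.4 and 8.78 in siEP300. With H2O2 it was 14.3, 12.8 and 11.8 in siNC.H2O2 and 9.27, 9.26 and 9.76 in siEP300.H2O2. The siNC libraries were thus the lowest and the siNC.H2O2 libraries the highest, and the EP300 siRNA groups overlapped each other in between. EP300 siRNA changed BHLHE41 by 0.83 ± 0.12 (SE, edgeR adjusted p = 3.6e-05) without H2O2 and by -0.46 ± 0.11 (edgeR adjusted p = 0.0026) with it. H2O2 raised it by 1.22 ± 0.12 in control siRNA cells (edgeR adjusted p = 1.9e-06). In EP300 siRNA cells the H2O2 value was -0.06 ± 0.12 (edgeR adjusted p = 0.72, 95% interval -0.31 to 0.18). The interaction was -1.28 ± 0.17 (edgeR adjusted p = 0.00088) and was called under each of 20 alternatives, between -1.41 and -0.88. The rises were smaller on the log2(FPKM + 1) scale, at 0.53 and 0.81, as this scale shrinks changes of low genes. SSPN, on the opposite strand, shares 162 of the 3948 exon bases of BHLHE41, and the strand setting of the counts is not given. SSPN fell with EP300 siRNA, by 0.99 and 1.36, and changed by -0.18 with H2O2 and control siRNA (edgeR adjusted p = 0.25).

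BHLHE40 (DEC1, chromosome 3, positions 4979116 to 4985323, plus strand) moved less than its relative. It was at 35.0, 28.5 and 30.5 CPM in siNC, 41.0, 35.6 and 35.7 in siEP300, 35.5, 37.6 and 39.2 in siNC.H2O2 and 33.7, 37.8 and 37.6 in siEP300.H2O2. The siNC libraries lay below those of siEP300 and siNC.H2O2. Both calls were 0.26 (edgeR adjusted p = 0.016 and 0.029). They were lost in 5 of 15 alternatives for siEP300 and in 8 of 15 for siNC.H2O2, with adjusted p up to 0.088 and 0.13. Without siNC library 2 they were 0.19 and 0.19, without siNC library 3 0.24 and 0.23, and without siEP300 library 4 the first was 0.19. Without siNC.H2O2 libraries 8 and 9 in turn the second was 0.25 and 0.22. The limma fits on log2(FPKM + 1) and log2(FPKM + 0.1) gave 0.18 and 0.20 for the first and 0.17 and 0.18 for the second. The second was also lost with upper-quartile scaling (0.20) and with only the groups compared (0.26).

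**Figure D4:**
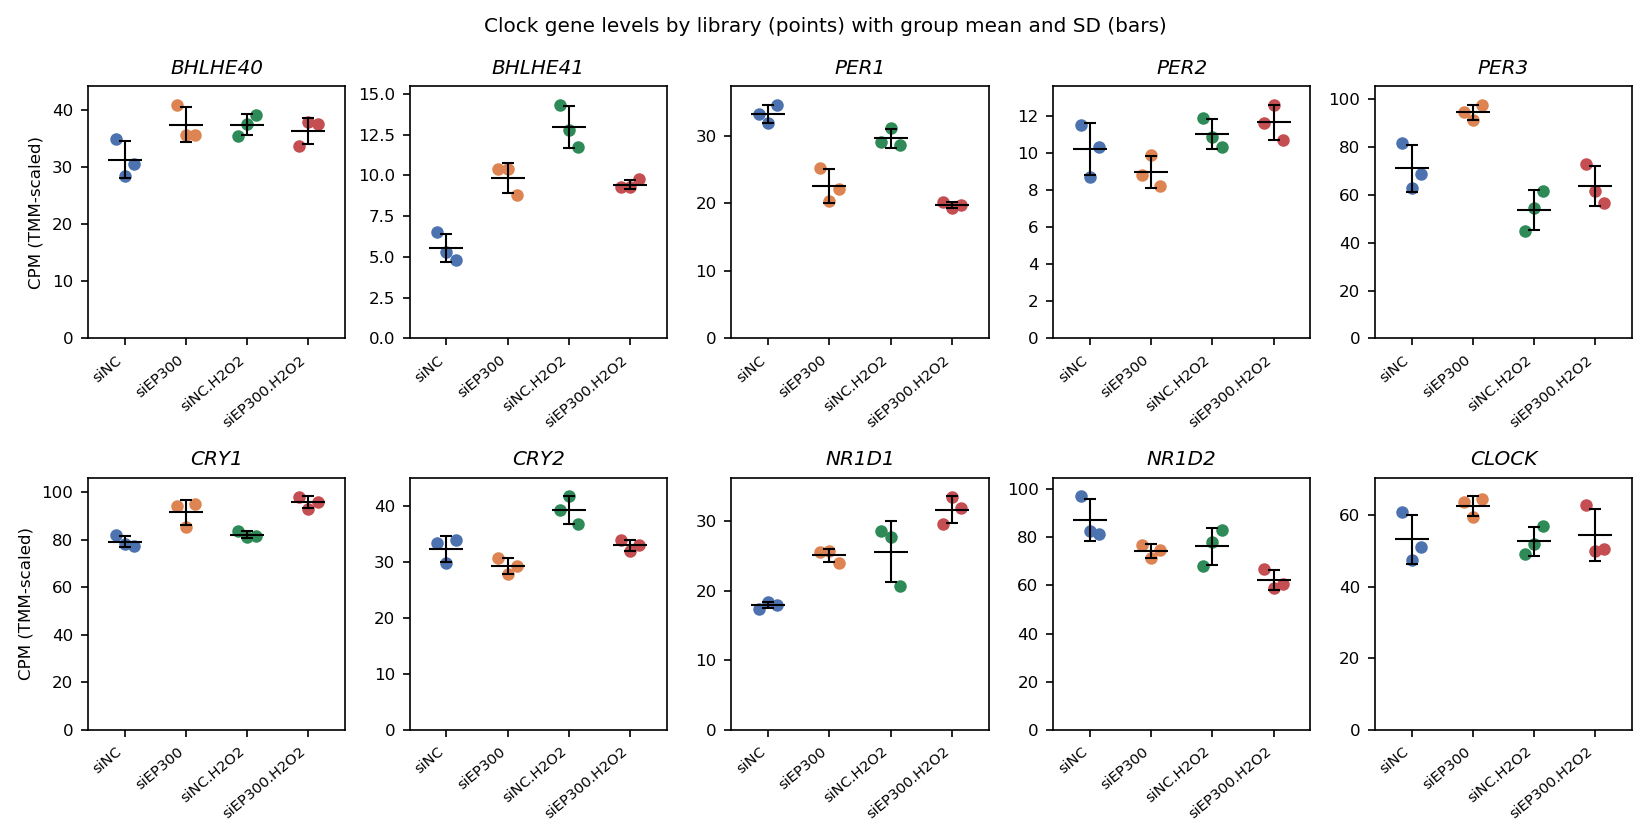
CPM of the 10 clock genes, with 1 point per library and black bars for the group mean and SD, on axes that start at 0. In BHLHE41 the siNC points (4.82 to 6.49) are lowest and the siNC.H2O2 points (11.8 to 14.3) highest, and in PER1 both EP300 siRNA groups (19.3 to 25.3) lie below both control siRNA groups (28.6 to 34.6).

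The period genes encode the repressors that partner the cryptochromes, and they did not move together. PER1 (chromosome 17, positions 8140472 to 8156506, minus strand) was at 33.3, 31.9 and 34.6 CPM in siNC and 25.3, 20.3 and 22.1 in siEP300. With H2O2 it was at 29.1, 31.2 and 28.6 in siNC.H2O2 and 20.1, 19.3 and 19.7 in siEP300.H2O2. All 6 EP300 siRNA libraries lay below all 6 control siRNA libraries. The falls were 0.56 ± 0.08 (edgeR adjusted p = 1.9e-05) and 0.58 ± 0.08 (edgeR adjusted p = 1.6e-05). As a share, the level fell by 32.1% and by 33.3%. PER1 is GC-rich (62.6% GC, percentile 91.1 of the genes tested), and fold changes with EP300 siRNA followed GC content across genes (rank correlation -0.35 without and -0.31 with H2O2). With a GC offset per library, chosen after seeing the data, the log2 fold changes of PER1 were -0.26 and -0.34 (edgeR adjusted p = 0.016 and 0.0037). H2O2 changed PER1 by -0.17 with control siRNA and -0.20 with EP300 siRNA (edgeR adjusted p = 0.10 and 0.080). The libraries did not overlap in either. The first was called with upper-quartile scaling (-0.22) and in both limma fits on log2 FPKM (-0.22 and -0.25). The second was called with upper-quartile scaling (-0.23) and without siEP300 library 5 (-0.27, edgeR adjusted p = 0.032).

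PER3 (chromosome 1, positions 7784320 to 7845177, plus strand) moved the other way with EP300 siRNA. The libraries gave 81.9, 62.7 and 68.7 CPM in siNC, 94.5, 91.1 and 97.6 in siEP300, 44.7, 54.7 and 61.5 in siNC.H2O2, and 73.1, 61.7 and 56.8 in siEP300.H2O2. The siEP300 libraries were above all others, and the siNC.H2O2 libraries below all siNC libraries. It rose by 0.41 ± 0.12 with EP300 siRNA (edgeR adjusted p = 0.0063), and with H2O2 the value was 0.25 (edgeR adjusted p = 0.080). The latter was called without siNC.H2O2 library 9 (0.37) or siEP300.H2O2 library 12 (0.33), and with the gene length offset (0.19). H2O2 lowered it by 0.56 ± 0.12 with EP300 siRNA (edgeR adjusted p = 0.0019). With control siRNA the fall was 0.41 ± 0.12 (edgeR adjusted p = 0.015), and the log2 fold change was -0.30 without siNC library 1, -0.29 without siNC.H2O2 library 7 and -0.17 without both (edgeR adjusted p = 0.056, 0.060 and 0.17). These libraries lie at the ends of the within-group axis, and they were the highest of siNC and the lowest of siNC.H2O2 for PER3. The libraries left without both score -9.09 and -4.89 in siNC and 0.90 and 10.5 in siNC.H2O2 on that axis, so the groups then differ along it. UTS2 on the opposite strand shares 868 of the 8099 exon bases of PER3 and had too few counts to be tested.

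PER2 (chromosome 2, positions 238244038 to 238290102, minus strand) had low counts, 151 to 221 per library. Its group means were 10.2 ± 1.41 CPM for siNC, 9.0 ± 0.853 for siEP300, 11.04 ± 0.791 for siNC.H2O2 and 11.7 ± 0.941 for siEP300.H2O2 (SD, n = 3). EP300 siRNA gave -0.18 without and 0.08 with H2O2, with 95% intervals of -0.43 to 0.06 and -0.16 to 0.32, neither called. The first was -0.29 and called with an offset for gene length (edgeR adjusted p = 0.030). H2O2 with EP300 siRNA raised it by 0.38 ± 0.11 (edgeR adjusted p = 0.021). This call was lost without siEP300 library 4 (0.36), siEP300 library 6 (0.31) or siEP300.H2O2 library 11 (0.32), and in both limma fits on log2 FPKM (0.21 and 0.32).

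The cryptochromes, partners of the PER proteins in repression, were called in opposite directions in 1 comparison, EP300 siRNA with H2O2, and neither of these calls held with the GC offset. CRY1 (chromosome 12, positions 106991364 to 107093829, minus strand) was at 81.9, 78.3 and 77.2 CPM in siNC, 94.3, 85.4 and 94.8 in siEP300, 83.6, 81.0 and 81.3 in siNC.H2O2 and 98.1, 92.9 and 95.9 in siEP300.H2O2. All EP300 siRNA libraries lay above all control siRNA libraries, and the rises were 0.21 ± 0.06 and 0.22 ± 0.06 (edgeR adjusted p = 0.0042 and 0.0029). CRY1 is at GC percentile 6.35, and with the GC offset the log2 fold changes were 0.03 and 0.06, neither called. H2O2 changed it by 0.05 and 0.06, with 95% intervals of -0.07 to 0.17 and -0.05 to 0.18.

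CRY2 (chromosome 11, positions 45847118 to 45883248, plus strand) was at 33.4, 29.7 and 33.9 CPM in siNC, 30.7, 27.8 and 29.2 in siEP300, 39.2, 41.7 and 36.7 in siNC.H2O2 and 33.8, 31.9 and 33.0 in siEP300.H2O2. The siNC.H2O2 libraries were above all others. H2O2 with control siRNA raised CRY2 by 0.28 ± 0.07 (edgeR adjusted p = 0.0069), a call that limma on log2 FPKM did not make (0.18, adjusted p = 0.058). EP300 siRNA lowered it with H2O2, by 0.25 ± 0.07 (edgeR adjusted p = 0.0067). With the GC offset (CRY2 is at GC percentile 77.7) the log2 fold change was -0.10, not called. Without H2O2 EP300 siRNA gave -0.14 (edgeR adjusted p = 0.094), and 5 of 15 alternatives called it, among them the fit without siNC library 2 (-0.20), while the GC offset turned its sign (0.04, not called).

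The REV-ERB receptor genes, whose products repress BMAL1, were called in opposite directions with EP300 siRNA, NR1D1 higher and NR1D2 lower. NR1D1 (REV-ERB alpha, chromosome 17, positions 40092787 to 40100725, minus strand) was at 17.5, 18.4 and 18.02 CPM in siNC and 25.6, 25.8 and 24.0 in siEP300. With H2O2 it was at 28.6, 27.7 and 20.6 in siNC.H2O2 and 29.7, 33.5 and 32.0 in siEP300.H2O2. The siNC libraries were below all others and the siEP300.H2O2 libraries above all others. EP300 siRNA raised NR1D1 by 0.48 ± 0.10 without and 0.31 ± 0.10 with H2O2 (edgeR adjusted p = 0.00093 and 0.015). The second call was lost without siNC.H2O2 library 9, the low one of its group (0.17, edgeR adjusted p = 0.054), or siEP300.H2O2 library 11 (0.27, edgeR adjusted p = 0.053). H2O2 raised it by 0.51 ± 0.10 with control and 0.34 ± 0.10 with EP300 siRNA (edgeR adjusted p = 0.0015 and 0.018). The last call was lost without siEP300 library 6 (0.30) or siEP300.H2O2 library 11 (0.30) or 12 (0.33). With the GC offset the EP300 siRNA changes of this GC-rich gene (percentile 81.3) were 0.69 and 0.48.

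NR1D1 shares 263 of its 2772 exon bases with THRA, the thyroid hormone receptor alpha gene on the opposite strand (positions 40058290 to 40093867), and its deposited counts had decimals in all 12 libraries. THRA fell with EP300 siRNA, by 0.59 without and 0.88 with H2O2 (edgeR adjusted p = 2.9e-06 and 6.7e-08), opposite in direction to NR1D1. Reads from the shared bases cannot be assigned to either gene without the strand setting.

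NR1D2 (REV-ERB beta, chromosome 3, positions 23945260 to 23980618, plus strand) was at 97.0, 82.7 and 81.2 CPM in siNC, 76.9, 71.2 and 74.8 in siEP300, 67.9, 78.0 and 82.9 in siNC.H2O2 and 66.9, 59.0 and 60.4 in siEP300.H2O2. The siEP300.H2O2 libraries were below all others. EP300 siRNA lowered it by 0.23 ± 0.08 without and 0.30 ± 0.08 with H2O2 (edgeR adjusted p = 0.028 and 0.0074). The first call was lost without siNC library 1 (-0.14), siEP300 library 5 (-0.19) or siEP300 library 6 (-0.23), and was -0.37 with the GC offset. The second was called in each of 15 alternatives, between -0.41 and -0.23. H2O2 lowered NR1D2 with EP300 siRNA by 0.26 ± 0.08 (edgeR adjusted p = 0.031), a call lost without siEP300 library 4 (-0.23) or 6 (-0.26) or siEP300.H2O2 library 11 (-0.22) or 12 (-0.24). With control siRNA the value was -0.19 (edgeR adjusted p = 0.091). It was called in 6 of 15 alternatives. These were upper-quartile scaling (-0.25), both limma fits, the offsets for gene length (-0.18) and GC content (-0.19), and the fit without siNC.H2O2 library 9 (-0.26).

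CLOCK, the activating subunit (chromosome 4, positions 55427903 to 55547138, minus strand), was called in 0 of the 5 comparisons. Its group means were 53.2 ± 6.92 CPM for siNC, 62.5 ± 2.75 for siEP300, 52.7 ± 4.04 for siNC.H2O2 and 54.4 ± 7.25 for siEP300.H2O2 (SD, n = 3), and the libraries overlapped in each comparison. EP300 siRNA gave 0.23 (edgeR adjusted p = 0.055, unadjusted 0.034). It was called in 5 of 15 alternatives. The value was 0.34 without siNC library 1 (edgeR adjusted p = 0.0060) and also without siNC library 1 and siNC.H2O2 library 7 together. It was 0.24 with DESeq2 (adjusted p = 0.046), 0.25 with every gene with a count and 0.24 with only the groups compared. With an offset for gene length it was -0.0014, CLOCK being the longest member by the deposited values. CLOCK is at GC percentile 5.52. EP300 siRNA with H2O2 gave 0.05, and -0.12 with the GC offset, neither called. H2O2 with EP300 siRNA gave -0.20, and -0.32 without siEP300.H2O2 library 10 (edgeR adjusted p = 0.024).

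The partners of CLOCK and the ROR activators formed a list of 6 genes, of which 4 were tested. Here and below the lists were chosen with earlier results of these data known. BMAL1 (listed under its older symbol ARNTL), the essential partner of CLOCK, rose from 14.3 ± 1.67 to 18.7 ± 0.656 CPM with EP300 siRNA (0.38, edgeR adjusted p = 0.0015). BMAL2 (ARNTL2), its paralog, fell from 55.4 ± 3.13 to 34.3 ± 5.53 CPM (by 0.69). NPAS2, which can stand in for CLOCK, was at 3.85, 4.64 and 3.98 CPM in siNC, 3.22, 2.66 and 3.27 in siEP300, 11.1, 10.7 and 10.8 in siNC.H2O2 and 6.18, 6.002 and 5.13 in siEP300.H2O2. The groups did not overlap. H2O2 raised NPAS2 by 1.38 ± 0.11 in control siRNA cells (edgeR adjusted p = 3.3e-07) and by 0.92 in EP300 siRNA cells, and EP300 siRNA lowered it by 0.44 and 0.91. The fall of 0.44 was not called without siNC library 2 (-0.36) or siEP300 library 5 (-0.35). The remaining gene tested, RORA, an activator of BMAL1, had at most 1.16 CPM in a library and was not called in any comparison, with a 95% interval of -0.85 to 0.70 for siEP300 against siNC.

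A list of 19 kinases, phosphatases, ubiquitin ligases and accessory regulators of PER and CRY had 18 genes tested. With EP300 siRNA 9 rose and 6 fell (median 0.12), where 61.5% of all genes were called, 30.1% higher and 31.4% lower. PRKAA2, a catalytic subunit of AMP-activated kinase, which phosphorylates CRY1, rose from 10.7 ± 1.15 to 33.2 ± 1.63 CPM (1.63). GSK3B, a kinase of several clock proteins, rose from 67.1 ± 3.22 to 124 ± 3.90 CPM (0.89), and TIPIN, the partner of TIMELESS, from 16.2 ± 0.607 to 25.7 ± 1.88 (0.66). With H2O2 and control siRNA 5 rose and 2 fell, where 35.3% of all genes were called. TIMELESS fell by 0.31, and CSNK1E, a casein kinase that phosphorylates PER proteins, rose by 0.30 (edgeR adjusted p = 2e-04 and 0.00079).

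Of 10 clock output genes, 9 were tested, and with EP300 siRNA 4 rose and 4 fell (median -0.09), beside the 61.5% of all genes. DBP, a PAR bZIP factor driven directly by CLOCK-BMAL1, was at 22.2, 22.9 and 22.1 CPM in siNC, 16.2, 17.96 and 14.6 in siEP300, 13.5, 11.8 and 11.1 in siNC.H2O2 and 6.95, 8.63 and 7.83 in siEP300.H2O2. The 4 groups did not overlap. DBP fell by 0.46 with EP300 siRNA and by 0.88 with H2O2 (edgeR adjusted p = 0.00061 and 7.4e-06), and the first was -0.20 with the GC offset, not called (edgeR adjusted p = 0.055). Its relative TEF rose by 0.31 with EP300 siRNA, from 42.0 ± 0.598 to 52.2 ± 2.98 CPM. KLF9, a Krüppel-like output factor, fell by 0.58 with EP300 siRNA and rose by 0.42 with H2O2. With H2O2 and control siRNA 4 output genes rose and 1 fell, beside 35.3% of all genes called, and the rises included NAMPT, the rate-limiting enzyme of NAD salvage (0.69, from 144 ± 7.93 to 232 ± 21.5 CPM), and KLF10 (0.58).

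The inputs to PER transcription were 8 genes, all tested. With EP300 siRNA 2 rose and 3 fell, a share near the 61.5% of all genes. CRTC1, a coactivator of CREB, fell from 21.9 ± 0.812 to 10.1 ± 0.676 CPM (by 1.12) and SIK1, the kinase that restrains CRTC proteins, from 9.19 ± 0.936 to 4.61 ± 0.619 (by 1.00), while FKBP5, a glucocorticoid receptor cochaperone, rose from 71.4 ± 5.49 to 108 ± 4.03 (0.59). With H2O2 and control siRNA, 2 rose and 3 fell, beside 35.3% of all genes, with SIK1 at 0.71, CRTC1 at -0.50 and FKBP5 at -0.38. With the GC offset CRTC1 was at -0.68 for siEP300 against siNC, and the H2O2 value of FKBP5 was -0.24 without siNC library 1 and siNC.H2O2 library 7. On the log2(FPKM + 1) scale, which shrinks changes of low genes, PRKAA2 was at 1.07 and SIK1 at -0.63 with EP300 siRNA, SIK1 at 0.46 with H2O2, and NPAS2 at -0.28 and 0.81.

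**Figure D5:**
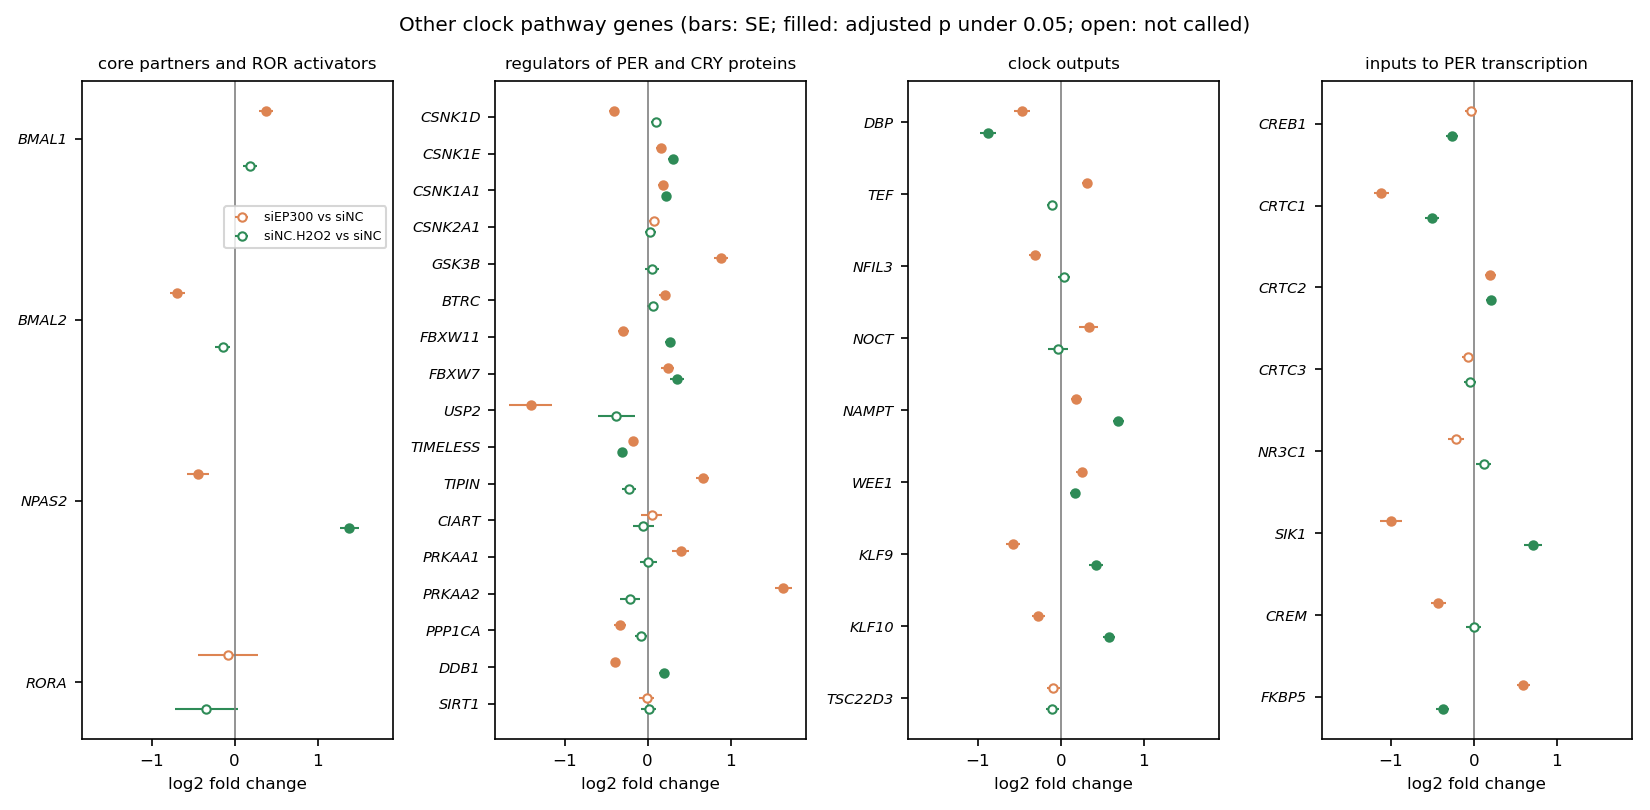
Log2 fold changes (x axis, with SE bars) of the tested genes of the 4 lists, all but 1, for siEP300 against siNC (orange) and siNC.H2O2 against siNC (green), with filled points for calls. Each panel holds points on both sides of 0, with PRKAA2 at 1.63 and NPAS2 at 1.38 as the farthest rises.

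Profiles like those of the most variable members were sought over the 12 libraries, by the root mean square difference of centred log2 CPM. The search covered 10417 genes whose mean reached 5 CPM and that GENCODE 29 calls protein coding, without clone, antisense and unnamed-locus symbols. BHLHE41 and PER3 had the largest ranges between group means, 1.21 and 0.83. Nearest to BHLHE41 were SEMA3A (0.18), LOX (0.19), SNAI2 (0.21), ADM (0.22) and DNER (0.22). SEMA3A, a secreted guidance cue, was at 4.77 ± 1.103 CPM for siNC, 6.63 ± 0.325 for siEP300, 9.18 ± 0.0783 for siNC.H2O2 and 6.67 ± 0.579 for siEP300.H2O2, so that siNC was lowest and siNC.H2O2 highest as in BHLHE41. The nearest other member was NR1D1, at 0.33. Nearest to PER3 were NXT2 (0.052), UTRN (0.065), FBN2 (0.074), KNTC1 (0.082) and CEP44 (0.089), and the nearest other member was CLOCK, at 0.22. UTRN, the gene of the dystrophin relative utrophin, was at 182 ± 40.1 CPM for siNC, 249 ± 11.6 for siEP300, 137 ± 23.3 for siNC.H2O2 and 166 ± 25.2 for siEP300.H2O2. These distances describe shared library differences as well as shared group differences.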

How the data were processed

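The authors deposited estimated counts per gene symbol and FPKM for 12 libraries. The submitters' processing notes name HISAT, Bowtie2 and GRCh38.p13. Not given in the sources used here: tool versions and roles, the counting program, the annotation and the strand setting. The deposited estimated counts (12.0% to 13.8% of them not whole) were rounded, and replicate pairs differed by more than sampling noise (chi-square per degree of freedom 1.78 to 18.1). Groups came from sample titles. The main test was edgeR 4.0.16 (R 4.3.3): quasi-likelihood, TMM, filterByExpr, all 12 libraries, 1 mean per group, two-sided, Benjamini-Hochberg over 13171 genes. CPM uses TMM-scaled totals. The deposited FPKM were used for levels between genes and, as log2(FPKM + 1) and log2(FPKM + 0.1), for limma 3.58.1. DESeq2 1.42.0 was another alternative. Scripts were tested on simulated data. The members, gene lists and named genes (in each list the smallest adjusted p values, up to 3 for each of the EP300 siRNA and H2O2 comparisons without the other treatment and up to 2 for the interaction) were chosen with earlier results of these data known. The values of 1 gene the rule names are not reported here. Promoter sequences are RefSeq's, gene positions GENCODE's, and GC content covered 97.7% of the genes tested.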

Additional observations from a re-analysis of the deposited data

Results flagged for a closer look

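The effect of EP300 siRNA differed between cells with and without H2O2, by the interaction term of the edgeR fit, for 1 of 10 clock members and 3 genes of the pathway lists. The 4 lists held 4, 18, 9 and 8 tested genes, and 3.33% of all genes were called (1.12% higher and 2.21% lower). For BHLHE41 the effect with H2O2 minus that without was -1.28 on the log2 scale (SE 0.17, edgeR adjusted p = 0.00088), the siRNA giving higher levels without H2O2 and lower levels with it. For KLF9 it was -0.536 (SE 0.12, edgeR adjusted p = 0.023), with falls of 0.58 without and 1.11 with H2O2. For CRTC1 it was 0.549 (SE 0.13, edgeR adjusted p = 0.029), with falls of 1.12 and 0.57, the second at -0.20 and not called with the GC offset (edgeR adjusted p = 0.054). For TIMELESS it was 0.273 (SE 0.07, edgeR adjusted p = 0.046), with a fall of 0.17 without H2O2 and a value of 0.10 with it, above 0 and not called. The BHLHE41 interaction was called in each of 20 alternatives. That of KLF9 was lost in 8 of them, among them the fits without siNC replicate 2 or 3, siEP300 replicate 4 or 6, or siEP300.H2O2 replicate 11 or 12 (-0.53 to -0.49), that of CRTC1 in 8 (0.45 to 0.59, adjusted p up to 0.094), all of them fits without 1 library, and that of TIMELESS in 12 (adjusted p up to 0.13).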

How the results depend on the processing

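Of 50 values (10 members in 5 comparisons), 27 kept their call under every alternative, 12 of 23 calls were lost under at least 1, and 11 uncalled values gained a call under at least 1. Of 800 values under alternatives, 27 changed sign, none of them called in either fit. Calls on BHLHE41, on PER1 with EP300 siRNA, on PER3 and NR1D1 for siEP300 against siNC, on PER3 for H2O2 with EP300 siRNA, on NR1D1 for H2O2 with control siRNA and on NR1D2 for EP300 siRNA with H2O2 held in all alternatives run. Leaving out 1 library moved the count of members lower from 2 to between 1 and 3 for siEP300 against siNC, that of members higher from 2 to between 1 and 3 for siEP300.H2O2 against siNC.H2O2, that of members lower from 1 to between 0 and 2 for siNC.H2O2 against siNC, and those for siEP300.H2O2 against siEP300 from 2 to between 0 and 2 higher and from 2 to between 1 and 3 lower. Over all genes the same counts, in that order, were 3682 to 4174 lower, 3371 to 3688 higher and 1707 to 2258 lower. For siEP300.H2O2 against siEP300 they were 1560 to 2019 higher and 1436 to 1904 lower. Leaving out 1 library moved the genes with an interaction from 148 to between 59 and 258 higher and from 291 to between 137 and 459 lower. A gene length offset gave 4 members lower for siEP300 against siNC and 2 for siNC.H2O2 against siNC, and 400 genes higher and 707 lower in the interaction. For siNC.H2O2 against siNC, upper-quartile scaling gave 3 members lower, and limma on log2(FPKM + 1) and log2(FPKM + 0.1) gave 3 lower and 2 higher each. For siEP300.H2O2 against siEP300 both gave 1 higher, and in the interaction 325 and 265 genes higher. The GC offset and the fit without siNC library 1 and siNC.H2O2 library 7 together were chosen after seeing the data. The first gave 1 member higher for siEP300.H2O2 against siNC.H2O2 and 2 lower for siNC.H2O2 against siNC. The second gave 1 lower for siEP300 against siNC and 0 lower for siNC.H2O2 against siNC. In the interaction it gave 3 members lower, beside 767 genes higher and 1229 lower of the 13247 genes it tested. The causes were not tested. The median over all genes moved by less than 0.1 (log2) under each scaling. For siNC.H2O2 against siNC it was -0.065 with upper-quartile scaling and -0.063 and -0.080 in the 2 limma fits, against -0.0081 in the main fit. Member counts given above without a count over all genes describe those fits and are not results about the members. A fit on the compared groups alone is not possible for the interaction. No paired analysis was possible because the groups share no replicate number. BHLHE41 and PER2 had the fewest counts, which limits their precision.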
